A study of Homo sapiens with 2 samples.

Results

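Expression of 9 genes of the NRF2 antioxidant pathway was examined in human umbilical vein endothelial cells (HUVECs), primary endothelial cells of the umbilical cord vein, after perfusion with red blood cells. The genes were NFE2L2, GCLM, GCLC, TXNRD1, SRXN1, SLC7A11, OSGIN1, PRDX1 and TXN, taken by gene symbol, and all 9 were found among the 36601 genes of the files. After about 48 hours of growth the cells covered the walls of 50 µm microfluidic channels, and red cells were then perfused for 4 hours. In the 5% pdRBC group, 5% of the perfused red cells were dehydrated ones, treated with nystatin and washed in sucrose until their mean hemoglobin concentration lay at 40 to 42 g/dL, and the remainder were healthy. The hRBC group received healthy red cells alone. Both groups thus had HUVECs under flow with red cells, and no static or red-cell-free group was analysed here. The dehydrated cells were prepared from healthy ones as a stand-in for the stiff red cells of sickle cell disease. Both groups consist of 1 library each of 10x 5′ single-cell RNA, so no difference between the groups has a replicate check and no p-value is given.

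NRF2, the transcription factor encoded by NFE2L2, is held in the cytoplasm by KEAP1 and degraded there. Oxidants and electrophiles that modify KEAP1 let NRF2 accumulate, enter the nucleus and, paired with a small MAF protein, bind antioxidant response elements near its target genes. The targets supply glutathione, reduce oxidised protein thiols and degrade heme. HMOX1, heme oxygenase 1, is a shared target of NRF2 and of the heme-sensitive repressor BACH1, and in endothelium it is a classical response to free heme and to oxidative stress. Much of the control of NRF2 acts on the protein, which an RNA library does not measure.

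The core of the antioxidant response element was searched for as TGACNNNGC, on both strands, in the promoters that the RefSeq-based table (GRCh38.p14) holds, from 250 bases before to 50 bases after each start site. Of the 9 genes, 7 had a promoter in the table, all but PRDX1 and SLC7A11, and 2 of these 7 held the motif, GCLM and TXNRD1. They are shown because they hold a match to the motif within the window, on the gene's own strand from 5′ to 3′ with the motif in capitals. The first lies at chr1:93909381-93909680 on the minus strand and the second at chr12:104215529-104215828 on the plus strand.
GCLM: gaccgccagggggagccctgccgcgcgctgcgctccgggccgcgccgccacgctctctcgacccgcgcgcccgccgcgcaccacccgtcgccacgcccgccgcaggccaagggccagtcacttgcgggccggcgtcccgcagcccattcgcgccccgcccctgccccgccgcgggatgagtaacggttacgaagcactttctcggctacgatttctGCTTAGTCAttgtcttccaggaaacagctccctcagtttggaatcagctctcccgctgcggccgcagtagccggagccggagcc
TXNRD1: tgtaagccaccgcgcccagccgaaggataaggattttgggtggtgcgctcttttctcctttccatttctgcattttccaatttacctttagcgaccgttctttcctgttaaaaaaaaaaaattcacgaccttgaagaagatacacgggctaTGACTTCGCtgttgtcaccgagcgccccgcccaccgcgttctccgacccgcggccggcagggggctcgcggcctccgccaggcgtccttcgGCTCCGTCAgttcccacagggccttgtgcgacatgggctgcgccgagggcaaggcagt
The GCLM match begins 34 bases before the start site and reads TGACTAAGC on the opposite strand. TXNRD1 held 2 matches that do not overlap, the first of which, TGACTTCGC, begins 99 bases before the start site. The motif was present in 13.6% of all 27305 promoters and in 15.4% of the 8740 promoters of genes measured here. Functional elements of these genes are known outside such short windows, and whether the matches shown act as elements was not tested.

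The 5% pdRBC library held 1635 barcodes and 16158876 UMIs (unique molecular identifiers, which count RNA molecules), and the hRBC library held 3858 barcodes and 14321939 UMIs. After the cell filter, 1601 cells of 5% pdRBC with a median of 9566 UMIs and 2555 cells of hRBC with a median of 2175 UMIs remained. All 10 endothelial markers were detected in both libraries, with summed levels of 3811 and 4029 CPM (UMIs scaled to a library total of 1000000). Erythroid markers summed to 4 and 15 UMIs and leukocyte markers to 15 and 6 UMIs over all kept cells of 5% pdRBC and hRBC. Of kept cells, 85.6% in 5% pdRBC and 30.1% in hRBC had 5000 or more UMIs. Only 9 barcodes occurred in both libraries.

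Summed over all kept cells, the 9 genes stood at nearly the same level after both perfusions. Their median log2 fold, 5% pdRBC over hRBC, was 0.04, beside 0.02 over 11043 measured genes (100 or more UMIs in both libraries together). All 9 were measured. None was 1.2-fold or more higher in 5% pdRBC, a size reached by 10.4% of measured genes, and none was 1.2-fold or more lower, reached by 7.43%. Intervals below are 95% Clopper-Pearson intervals of how a gene's UMIs split between the libraries. They cover counting error only and not the spread between devices, cultures or cells.

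NFE2L2 had 110 CPM in 5% pdRBC and 109 CPM in hRBC, a log2 fold of 0.02 (-0.08 to 0.12). The enzyme for the first and rate-limiting step of glutathione synthesis, glutamate-cysteine ligase, has a catalytic subunit from GCLC and a modifier subunit from GCLM. GCLM was at 232 CPM in 5% pdRBC and 220 CPM in hRBC, a log2 fold of 0.08 (0.01 to 0.15). GCLC was the least abundant of the 9, with 19.5 CPM in 5% pdRBC and 17.0 CPM in hRBC, and its log2 fold of 0.20 (-0.05 to 0.45) rests on 315 and 227 UMIs. SLC7A11, the cystine importer that supplies the cysteine of glutathione, was at 623 CPM in 5% pdRBC and 615 CPM in hRBC, a log2 fold of 0.02 (-0.02 to 0.06). Of these 4 genes, only the interval of GCLM leaves out 0, and its upper bound stays within 0.15.

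The second branch of the pathway is the thioredoxin system. Thioredoxin (TXN) reduces protein disulphides, thioredoxin reductase (TXNRD1) recharges it with NADPH, peroxiredoxin 1 (PRDX1) uses it to reduce hydrogen peroxide, and sulfiredoxin (SRXN1) repairs peroxiredoxins that peroxide has over-oxidised. TXNRD1 had 1374 CPM in 5% pdRBC and 1337 CPM in hRBC, and TXN had 980 CPM in 5% pdRBC and 950 CPM in hRBC, each a log2 fold of 0.04. PRDX1 stood at 635 CPM in 5% pdRBC and 629 CPM in hRBC, a log2 fold of 0.01 (-0.03 to 0.06). Among the 9, SRXN1 had the interval farthest from 0, with 297 CPM in 5% pdRBC and 270 CPM in hRBC, a log2 fold of 0.14 (0.07 to 0.20). OSGIN1, an oxidative stress-induced growth inhibitor, was the single gene of the 9 below 0 in these sums, with 44.8 CPM in 5% pdRBC and 49.0 CPM in hRBC and a log2 fold of -0.13 (-0.29 to 0.02). HMOX1 itself had 770 CPM in 5% pdRBC and 666 CPM in hRBC, a log2 fold of 0.21 (0.17 to 0.25), again short of 1.2-fold. These folds weight each cell by its UMIs. With every cell weighted equally, the log2 fold was 0.0083 for SRXN1, 0.07 for HMOX1, -0.11 for TXN, -0.23 for PRDX1 and -0.27 for OSGIN1, the last of these past 1.2-fold. With cells thinned to 2000 UMIs, HMOX1 had 0.09, TXN -0.01 and PRDX1 -0.16.

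The order of abundance was the same in both libraries. A 5′ UMI library counts molecules at one end, so CPM was not divided by length. TXNRD1 was the most abundant, followed by TXN, PRDX1, SLC7A11, SRXN1, GCLM, NFE2L2, OSGIN1 and GCLC. The neighbours PRDX1 and SLC7A11 had overlapping counting intervals (622 to 647 and 611 to 636 CPM in 5% pdRBC, 615 to 642 and 601 to 628 CPM in hRBC), and all other neighbours were apart in both libraries.

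**Figure D1:**
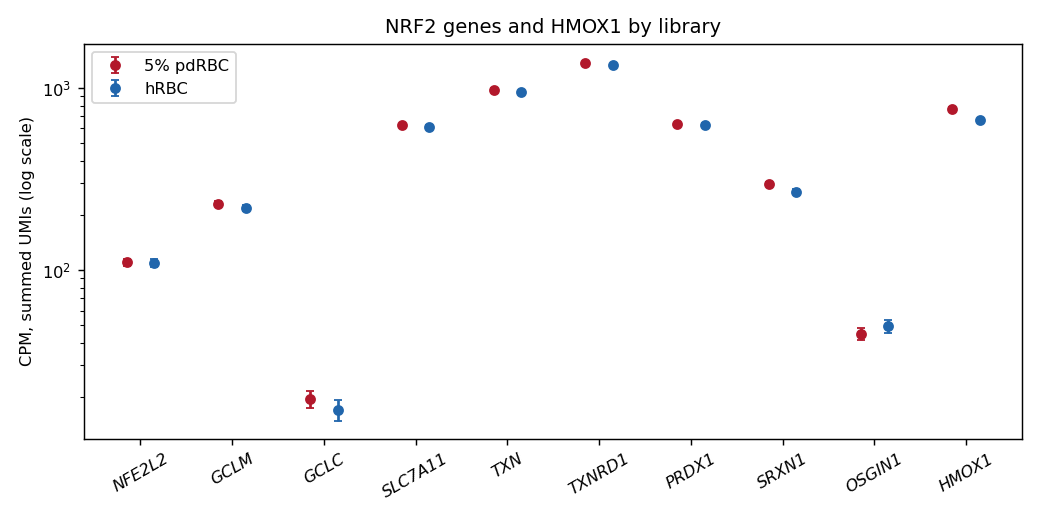
CPM of each gene in the 5% pdRBC library (red, left) and the hRBC library (blue, right) on a log scale, from UMIs summed over kept cells. Bars are exact Poisson 95% intervals, which cover counting error only. The 9 pairs lie close together, from GCLC at 19.5 and 17.0 CPM to TXNRD1 at 1374 and 1337 CPM, and HMOX1 stands at 770 and 666 CPM.

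The genes around this set were described with 9 wider lists. Their counts past 1.2-fold stand beside 10.4% of all measured genes higher and 7.43% lower. All 10 NRF2 regulators lay above 0, as did 5981 of 11043 measured genes, with a median log2 fold of 0.16. The intervals of NFE2L2, KEAP1, BACH2 and MAFK include 0. Of the 10, 1 exceeded 1.2-fold, BACH2, at only 7.25 CPM in 5% pdRBC and 5.55 CPM in hRBC. The autophagy receptor SQSTM1, which competes with NRF2 for KEAP1, had 642 CPM in 5% pdRBC and 564 CPM in hRBC, a log2 fold of 0.19 (0.14 to 0.23). MAFF, a small MAF partner, was at 121 CPM in 5% pdRBC and 106 CPM in hRBC, a log2 fold of 0.19 (0.09 to 0.29).

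Among 8 measured genes of glutathione synthesis and cycling, GPX4, the peroxidase of lipid hydroperoxides, was higher, with 1135 CPM in 5% pdRBC and 914 CPM in hRBC and a log2 fold of 0.31 (0.28 to 0.35). GSR, which regenerates reduced glutathione, was lower, with 54.6 CPM in 5% pdRBC and 67.3 CPM in hRBC and a log2 fold of -0.30 (-0.44 to -0.17). In the deeper cells thinned to equal depth for the correlations below, GSR was nearly level. Its mean there was 0.256 thinned UMIs per cell in 5% pdRBC and 0.268 in hRBC. GPX4 stayed higher in those cells, with means of 5.73 in 5% pdRBC and 4.73 in hRBC. The list's median was 0.07. In the thioredoxin and peroxiredoxin list of 12, the median was 0.00, and 2 genes were lower by more than 1.2-fold. TXNRD2, the mitochondrial reductase, had 130 CPM in 5% pdRBC and 174 CPM in hRBC, a log2 fold of -0.42 (-0.51 to -0.34). TXNIP, the thioredoxin inhibitor, was scarce, with 90 UMIs in 5% pdRBC and 95 UMIs in hRBC and an interval of -0.78 to 0.08 about its log2 fold of -0.35.

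No gene of NADPH supply reached 1.2-fold in either direction (6 measured, median -0.10). Of 15 measured detoxification genes, 1 was higher and 1 lower by 1.2-fold, with a median of -0.04. MGST1, a membrane glutathione transferase, had 325 CPM in 5% pdRBC and 250 CPM in hRBC, a log2 fold of 0.38 (0.31 to 0.44). AKR1C1, an aldo-keto reductase, had a log2 fold of -0.30 (-0.64 to 0.03) on 150 and 153 UMIs. The direction of AKR1C1 depended on the cells counted. In the deeper cells thinned to equal depth for the correlations below, its mean was higher in 5% pdRBC. It was 0.050 thinned UMIs per cell in 5% pdRBC and 0.035 in hRBC, and no interval was computed. MGST1 kept its direction in those cells, with means of 1.52 in 5% pdRBC and 1.21 in hRBC. NQO1, the quinone reductase most often read as an NRF2 target, had 722 CPM in 5% pdRBC and 823 CPM in hRBC, a log2 fold of -0.19 (-0.23 to -0.15).

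Of these small lists, the heme and iron list held the largest share past 1.2-fold, 3 of 8 genes, all higher, beside 10.4% of measured genes. FTL and FTH1, the light and heavy chains of the iron store ferritin, had log2 folds of 0.37 (0.36 to 0.37) and 0.29 (0.29 to 0.30). FTL was at 33614 CPM in 5% pdRBC and 26095 CPM in hRBC, and FTH1 at 35705 CPM in 5% pdRBC and 29103 CPM in hRBC. SLC40A1, the iron exporter ferroportin, was at 32.6 CPM in 5% pdRBC and 26.4 CPM in hRBC, a log2 fold of 0.30 (0.10 to 0.50). The 3 further NRF2 targets (OSGIN1, TRIM16 and TRIM16L) and the 3 measured antioxidant enzymes (SOD1, SOD2 and CAT) had none past 1.2-fold, with medians of -0.02 and 0.03. Over the 56 measured genes of these 8 lists other than the 9, 6 were higher and 4 lower by 1.2-fold. All measured genes had shares of 10.4% and 7.43%. The median of the 56 was -0.0043.

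SLC7A11 is also a target of ATF4, the factor of the amino acid and unfolded protein responses. Of 13 measured genes of the ATF4 list (ATF4 and its targets), 1 was higher and 3 lower by 1.2-fold, with a median of -0.08. DDIT3, the stress factor CHOP, had 20.3 CPM in 5% pdRBC and 13.2 CPM in hRBC, a log2 fold of 0.62 (0.35 to 0.89). The serine and folate enzymes PHGDH, PSAT1 and MTHFD2 had log2 folds of -0.89 (-1.47 to -0.33), -0.51 (-0.94 to -0.08) and -0.44 (-0.61 to -0.28). PHGDH rests on 45 UMIs in 5% pdRBC and 69 in hRBC, and PSAT1 on 85 and 100. SLC7A11 and its partner chain SLC3A2, at 0.02 and -0.07, followed neither.

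Although the totals were level, the genes varied from cell to cell within each library, and most of them varied with HMOX1. Kept cells of 5000 or more UMIs (1370 of 5% pdRBC and 769 of hRBC) were ranked by HMOX1 CPM and divided into tertiles, 3 parts of equal cell number, within each library. HMOX1, the gene that was ranked, had 1709 CPM in the highest tertile and 97.2 CPM in the lowest of 5% pdRBC, and 1440 CPM and 104 CPM in those of hRBC. Of the 9 genes, 6 were at least 1.2-fold higher in the highest than in the lowest tertile in both libraries: GCLM, SRXN1, SLC7A11, OSGIN1, PRDX1 and TXN. Of 7224 genes measured in both, 6.55% were. Taken alone, 5% pdRBC had 7 of the 9 genes past this mark, beside 20.6% of its measured genes, and hRBC had 6 of 9, beside 11.8%. None of the 9 was 1.2-fold lower, beside 22.4% of measured genes in 5% pdRBC and 17.1% in hRBC.

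OSGIN1 differed most, with 74.5 CPM in the highest and 21.9 CPM in the lowest tertile of 5% pdRBC, a ratio of 3.39 (2.73 to 4.27). In hRBC it had 77.2 CPM in the highest and 28.8 CPM in the lowest tertile, a ratio of 2.67 (2.11 to 3.44). SRXN1 had 451 CPM in the highest and 180 CPM in the lowest tertile of 5% pdRBC, a ratio of 2.50 (2.31 to 2.71). In hRBC the SRXN1 levels were 321 CPM in the highest and 229 CPM in the lowest tertile, a ratio of 1.40 (1.27 to 1.54). For both genes the middle tertile of each library lay between the others, for SRXN1 in hRBC (237 CPM) close to the lowest.

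GCLM stood at 314 CPM in the highest and 175 CPM in the lowest tertile of 5% pdRBC, a ratio of 1.79 (1.65 to 1.95), and its ratio in hRBC was 1.41 (1.27 to 1.56). TXN had 1231 CPM in the highest and 753 CPM in the lowest tertile of 5% pdRBC, a ratio of 1.63 (1.57 to 1.70), and its ratio in hRBC was 1.35 (1.29 to 1.43). PRDX1 had ratios of 1.52 in 5% pdRBC and 1.37 in hRBC, and SLC7A11 of 1.24 and 1.23. TXNRD1 reached 1.27 (1.23 to 1.32) in 5% pdRBC but 1.14 (1.09 to 1.19) in hRBC. Every interval named here leaves out a ratio of 1.

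GCLC and NFE2L2 did not differ beyond counting error. GCLC had 20.5 CPM in the highest and 17.6 CPM in the lowest tertile of 5% pdRBC, a ratio of 1.16 (0.87 to 1.57), and its ratio in hRBC was 1.09 (0.73 to 1.65). The ratio of NFE2L2 was 1.11 (0.98 to 1.25) in 5% pdRBC and 0.97 (0.83 to 1.13) in hRBC. For GCLC the UMIs were few (110 and 82 in the highest and lowest tertile of 5% pdRBC), so a ratio as large as that of GCLM in hRBC lies inside its intervals. For NFE2L2 the upper bounds of 1.25 and 1.13 lie below the ratios of GCLM.

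**Figure D2:**
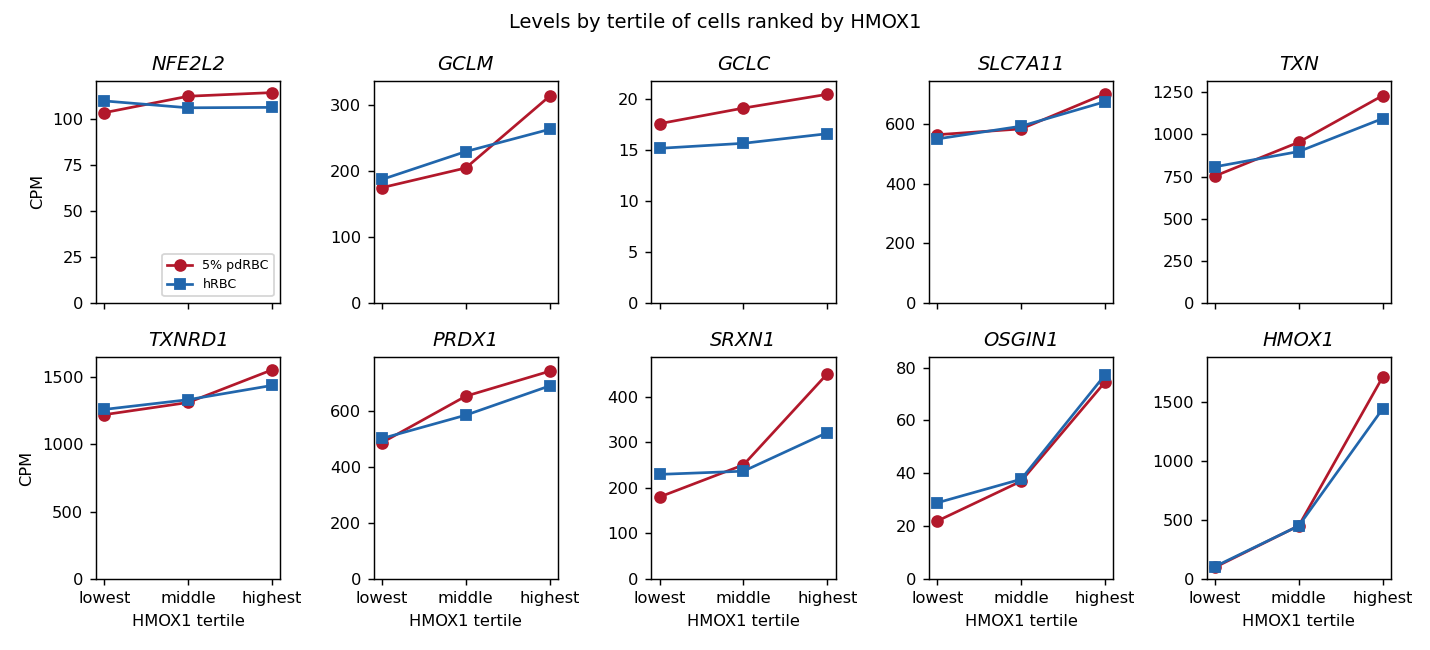
CPM of each gene (linear axes from 0) in the lowest, middle and highest tertile of cells ranked by HMOX1 CPM, in 5% pdRBC (red circles) and hRBC (blue squares), from cells of 5000 or more UMIs. OSGIN1 climbs to 74.5 and 77.2 CPM and SRXN1 to 451 and 321 CPM in the highest tertile, while NFE2L2 stays between 103 and 114 CPM. The HMOX1 panel shows the ranked gene.

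Beside the genes, other properties of the cells moved along the ranking. Cells of clusters led by cell cycle genes made up 14.9%, 6.13% and 3.73% of the lowest, middle and highest tertiles of 5% pdRBC, and 18.3%, 12.1% and 6.25% of those of hRBC. Median UMIs per cell were 9401, 10670 and 10704 in 5% pdRBC and 12124, 12640.5 and 12234.5 in hRBC. With the cycling clusters left out, an alternative added after the data were seen, the same 6 genes remained past 1.2-fold in both libraries. Within cluster 0 alone, likewise added, 5 did, all but PRDX1, and the OSGIN1 log2 ratio there was 1.00 in 5% pdRBC and 1.21 in hRBC.

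The wider lists showed how far beyond the 9 genes the relation reached. Of 48 other list genes measured in both libraries, 17 were 1.2-fold higher in the highest tertile of each, beside the 6.55% of all genes given above, and 0 were lower in both. In 5% pdRBC alone, IDH1, PIR and SLC40A1 were 1.2-fold lower, and in hRBC alone BACH1 was. SLC40A1 had 17.1 CPM in the highest and 37.1 CPM in the lowest tertile of 5% pdRBC, a log2 ratio of -1.11 (-1.50 to -0.74). In hRBC it had 26.1 CPM in the highest and 22.3 CPM in the lowest tertile, a log2 ratio of 0.23 (-0.24 to 0.70). SQSTM1 had 844 CPM in the highest and 459 CPM in the lowest tertile of 5% pdRBC and 722 CPM and 435 CPM in those of hRBC, log2 ratios of 0.88 and 0.73. NQO1 had log2 ratios of 0.39 and 0.59, GSTM3 of 0.94 and 1.18, TXNRD2 of 0.68 and 0.58, FTL of 0.59 and 0.48 and FTH1 of 0.46 and 0.38, in 5% pdRBC and hRBC. TXNRD2 and NQO1 thus stood higher in cells rich in HMOX1 in both libraries although their totals were lower in 5% pdRBC. KEAP1, the repressor of NRF2, was higher as well, with log2 ratios of 0.42 (0.23 to 0.62) and 0.56 (0.30 to 0.82). Of 10 genes of the ATF4 list (ATF4 and its targets) measured in both, 4 were higher in both, against the same 6.55%. These were ATF4 itself, DDIT4, SLC3A2, which is also among the 17 above, and SLC7A11, which is one of the 9 genes.

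BACH1, the repressor of HMOX1, went opposite ways by tertile. It had 65.9 CPM in the highest and 45.9 CPM in the lowest tertile of 5% pdRBC, a log2 ratio of 0.52 (0.27 to 0.77). In hRBC it had 40.0 CPM in the highest and 54.5 CPM in the lowest tertile, a log2 ratio of -0.45 (-0.79 to -0.11). The hRBC value rests on 130 and 176 UMIs, and the difference between the libraries was not tested. The share of all genes that went opposite ways was not computed.

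The relation was also read cell by cell, as a Spearman correlation over the same cells after each had been thinned to 5000 UMIs. The cells of a library share its preparation, and the values describe it without a test. TXN had a rho with HMOX1 of 0.25 in 5% pdRBC and 0.18 in hRBC, OSGIN1 of 0.21 and 0.17, and PRDX1 of 0.14 and 0.17. These 3 of 9 passed 0.1 in both libraries, as 0.643% of 11042 measured genes did. SRXN1 had the highest rho in 5% pdRBC, 0.31, and 0.099 in hRBC. GCLM (0.24 and 0.087), TXNRD1 (0.24 and 0.093) and SLC7A11 (0.15 and 0.069) likewise passed 0.1 in 5% pdRBC and lay under it in hRBC. NFE2L2 (0.049 and 0.040) and GCLC (0.028 and 0.0010) had the lowest rho in each library and lay under the 95th percentile of all genes. The median of all genes was -0.0014 in 5% pdRBC and -0.0033 in hRBC. BACH1 had 0.10 in 5% pdRBC and -0.018 in hRBC, the latter at the 36.8th percentile of all genes. Its lower tertile ratio in hRBC thus had little counterpart in rho.

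The count of 3 depended on depth and on the thinning draw. It was 1 with cells thinned to 2000 UMIs, 7 with cells thinned to 10000 or not thinned, and 6 with another random draw. All 7 genes other than NFE2L2 and GCLC lay above the 95th percentile of all genes in each library, which was 0.082 in 5% pdRBC and 0.068 in hRBC. Among 3862 genes with at least 0.2 thinned UMIs per cell in both libraries, of which 1.45% passed 0.1 in both, TXN was number 8 by mean rho, SRXN1 10, OSGIN1 15, TXNRD1 28, GCLM 29, PRDX1 37, SLC7A11 113 and NFE2L2 616. GCLC was too scarce to be ranked.

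The genes other than the 9 whose thinned UMIs followed HMOX1 most closely, by the mean rho over both libraries, were led by FTL (0.36 in 5% pdRBC and 0.28 in hRBC), FTH1 (0.33 and 0.27), SQSTM1 (0.32 and 0.19) and the metallothionein MT2A (0.34 and 0.14). RGS4, SLC9A3R2, MIR22HG, S100A10, LINC00520 and CD9 completed the first 10 of these. Against the mean z-score of the 9 genes, the genes outside the 9 that are reported here were, in order, SQSTM1 (0.34 and 0.25), FTL (0.31 and 0.25), FTH1, ANKRD1, FOSL1, MT2A, MIR22HG, CD9 and PTGR1. SQSTM1, FTL, FTH1, MT2A, MIR22HG and CD9 are on both lists.

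Among themselves the 9 genes had mostly low rho. Over their 36 pairs, the median rho was 0.077 in 5% pdRBC and 0.036 in hRBC. Of these pairs, 26 were positive in both libraries, and 6 reached 0.1 in both. Pairs of other genes were not computed, so no share over all pairs stands beside these counts. Other depths and draws were not examined for pairs. The closest pair was PRDX1 and TXN, enzyme and electron donor, with 0.32 in both libraries. TXNRD1 and SLC7A11 followed with 0.29 in 5% pdRBC and 0.26 in hRBC, TXNRD1 and SRXN1 with 0.28 and 0.17, and GCLM and SRXN1 with 0.27 and 0.16. TXNRD1 and its substrate TXN had only 0.072 and 0.085. SLC7A11 and PRDX1 had the lowest rho, -0.12 in 5% pdRBC and -0.084 in hRBC.

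**Figure D3:**
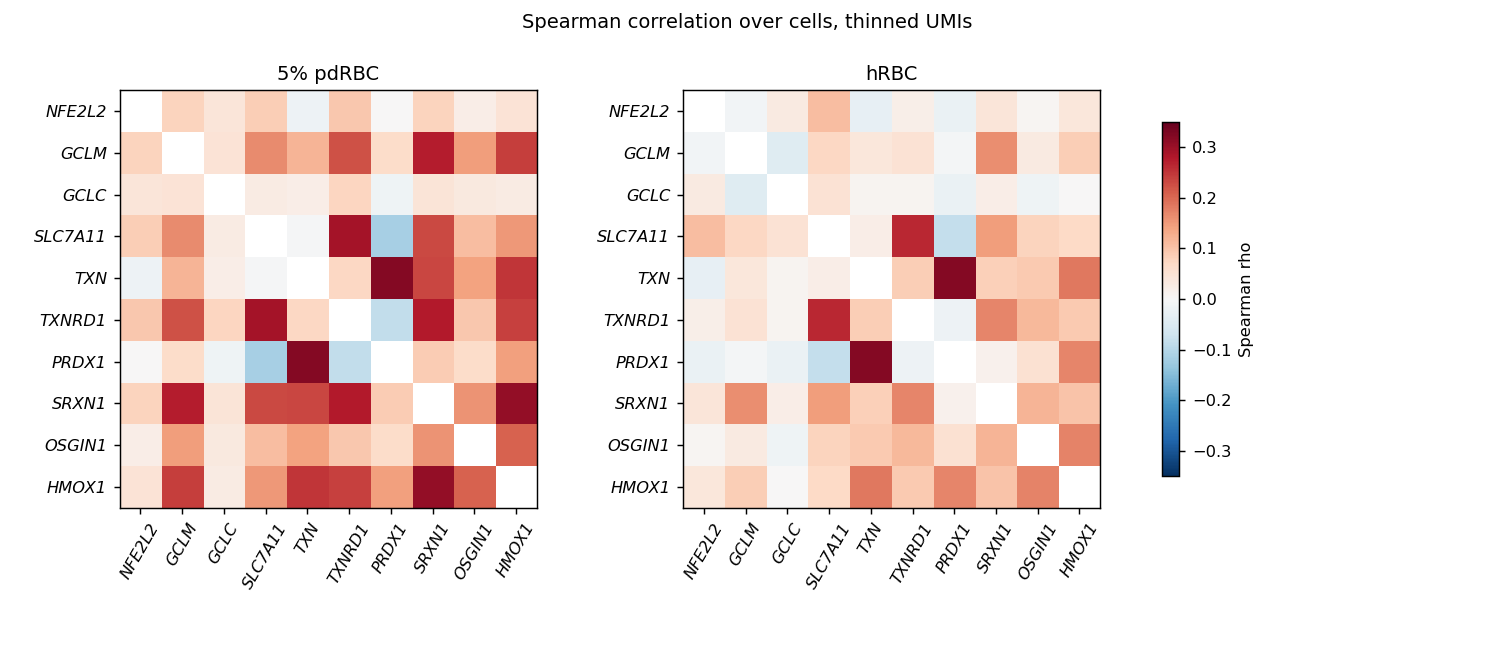
Spearman rho between each pair of the 9 genes and HMOX1 over cells thinned to 5000 UMIs, in 5% pdRBC (left, 1370 cells) and hRBC (right, 769 cells); red is positive, blue negative and the diagonal is blank. PRDX1 with TXN is the darkest pair among the 9 genes in both panels (0.32), and the HMOX1 row is darker in 5% pdRBC for every gene but PRDX1 (0.14 in 5% pdRBC and 0.17 in hRBC), with SRXN1 at 0.31 in 5% pdRBC against 0.099 in hRBC.

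The variance of thinned UMIs over cells was set against the mean. With a variance equal to the mean, as pure counting gives, the ratio of both is 1. For the same relative variation this ratio grows with the mean, which ran from 0.079 (GCLC in hRBC) to 6.99 (TXNRD1 in 5% pdRBC). The order below is therefore no ranking of relative variation between genes. HMOX1 had a ratio of 6.01 in 5% pdRBC and 4.76 in hRBC. PRDX1 followed with 2.94 and 2.67, TXN with 2.26 and 2.04, SRXN1 with 2.24 and 1.49 and TXNRD1 with 1.78 and 1.56. SLC7A11 had 1.58 and 1.59, GCLM 1.29 and 1.23, and OSGIN1 1.29 and 1.31. NFE2L2 (1.1 and 1.03) and GCLC (1.1 and 0.99) were close to the counting value in both libraries. Mean SRXN1 was 1.47 thinned UMIs per cell in 5% pdRBC and 1.28 in hRBC, so its larger ratio in 5% pdRBC came with a slightly higher mean.

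Clusters were built from both libraries without the 9 genes and HMOX1, so that their levels could be read across clusters. Clusters are given by number and leading genes, and those of under 20 cells in a library have no value for it. Cluster 0, led by TMEM158, GEM and EGR1, held 561 cells of 5% pdRBC and 385 of hRBC. Cluster 1, led by FABP4 and MGP, held 216 and 276, cluster 3, led by SOX5, GJA5 and DKK2, held 505 and 226, and cluster 4, led by cell cycle genes, held 126 and 358. Cluster 6, led by ANK2 and BEST1, held 50 cells of 5% pdRBC and 1155 of hRBC. Its cells were shallow, with a median of 1545 UMIs against 10885.5 in cluster 0.

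SRXN1 had 460 CPM in cluster 0, 152 in cluster 1, 176 in cluster 3 and 219 in cluster 4 of 5% pdRBC, and 340, 167, 231 and 212 CPM in the same clusters of hRBC. GCLM had 312, 154, 173 and 234 CPM in those of 5% pdRBC and 263, 172, 203 and 215 CPM in those of hRBC. Both genes were thus highest in cluster 0 among these 4. The peak of SRXN1 in 5% pdRBC was cluster 10, led by DDIT3 and TRIB3, with 689 CPM over 32 cells.

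PRDX1 had another distribution, with 1209 CPM in cluster 1 and 298 CPM in cluster 3 of 5% pdRBC, and 1107 CPM and 393 CPM in those of hRBC. Its highest cluster was cluster 10 in 5% pdRBC (1499 CPM) and cluster 8, led by the adhesion molecule SELE and chemokines, in hRBC (1207 CPM, 80 cells). HMOX1 was highest in cluster 0 in 5% pdRBC, at 1257 CPM, and in cluster 8 in hRBC, at 1341 CPM. SLC7A11 was highest in cluster 9, led by SH3RF3 and MECOM. The levels of SLC7A11 there were 1098 CPM in 5% pdRBC (45 cells) and 944 CPM in hRBC (35 cells). SRXN1 was lowest there, at 78.9 and 51.3 CPM, on 11 and 5 UMIs. PRDX1, TXN and HMOX1 were lowest in cluster 9 in both libraries as well. NFE2L2 and TXNRD1 varied little, with a highest over a lowest cluster of 1.56 and 1.64 in 5% pdRBC and 1.64 and 1.61 in hRBC. GCLM had a ratio of 2.18 in 5% pdRBC and, in hRBC, the smallest of the 9, 1.60. Cluster 9 had a median mitochondrial share of 7.20% of UMIs, against 0.90% to 2.87% in the other clusters, and the part of this in its levels was not tested.

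Within clusters, the libraries were not level. In cluster 0, 5 of the 9 genes (GCLC, SRXN1, OSGIN1, PRDX1 and TXN) were 1.2-fold or more higher in 5% pdRBC, as were 14.7% of genes measured there, and the median log2 fold was 0.28. In cluster 3, 3 of the 9 (SRXN1, OSGIN1 and PRDX1) were 1.2-fold or more lower, as were 13.4% of genes measured there, and the median was -0.21. None was lower by that much in cluster 0, beside 12.6% of genes, or higher in cluster 3, beside 17.3%. Clusters 0 and 3, the ones with most 5% pdRBC cells, were singled out after their values were seen, and no test of the difference between them was possible with 1 library per group. GCLM, SRXN1, OSGIN1, PRDX1 and TXN were at least 1.1-fold higher in cluster 0 and at least 1.1-fold lower in cluster 3, 5 of 9 genes, as were 6.67% of 7419 genes. By counting intervals, 6 of the 9 genes (these and SLC7A11) lay above 0 in cluster 0 and below 0 in cluster 3. Of the 7419 genes, 1.73% did. Whether an interval leaves out 0 depends on a gene's UMIs as well as its fold, and SLC7A11 had 4556 and 2924 in cluster 0. The 7419 genes start at 100 UMIs in each cluster, so the 1.73% was not matched for abundance.

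HMOX1 had 1257 CPM in 5% pdRBC and 834 CPM in hRBC in cluster 0, a log2 fold of 0.59 (0.54 to 0.65). In cluster 3 it had 361 CPM in 5% pdRBC and 491 CPM in hRBC, a log2 fold of -0.44 (-0.56 to -0.33). SRXN1 followed it with 0.44 (0.35 to 0.53) in cluster 0 and -0.39 (-0.55 to -0.23) in cluster 3. PRDX1 had 672 CPM in 5% pdRBC and 502 CPM in hRBC in cluster 0, a log2 fold of 0.42 (0.34 to 0.49), and -0.40 (-0.52 to -0.27) in cluster 3.

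OSGIN1 had log2 folds of 0.29 (0.07 to 0.52) in cluster 0 and -0.73 (-1.15 to -0.30) in cluster 3, where it rests on 108 and 84 UMIs. TXN had 0.28 (0.22 to 0.33) and -0.21 (-0.30 to -0.12), and GCLM 0.25 (0.14 to 0.35) and -0.23 (-0.40 to -0.06). SLC7A11 had 0.07 (0.00 to 0.14) in cluster 0 and -0.15 (-0.24 to -0.06) in cluster 3. TXNRD1 (0.05 and -0.05) and NFE2L2 (0.10 and -0.09) stayed within 0.10 of 0 in clusters 0 and 3. GCLC had 0.60 (0.18 to 1.04) in cluster 0, on 149 and 66 UMIs, and -0.13 (-0.64 to 0.42) in cluster 3. In the other clusters the signs differed between genes. HMOX1 had 0.09 in cluster 1, -0.51 in cluster 4 and -0.29 in cluster 6, and OSGIN1 had -0.53 in cluster 1 and -0.58 in cluster 4. PRDX1 had 0.13 in cluster 1 and -0.72 in cluster 6, where TXNRD1 had -0.32.

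**Figure D4:**
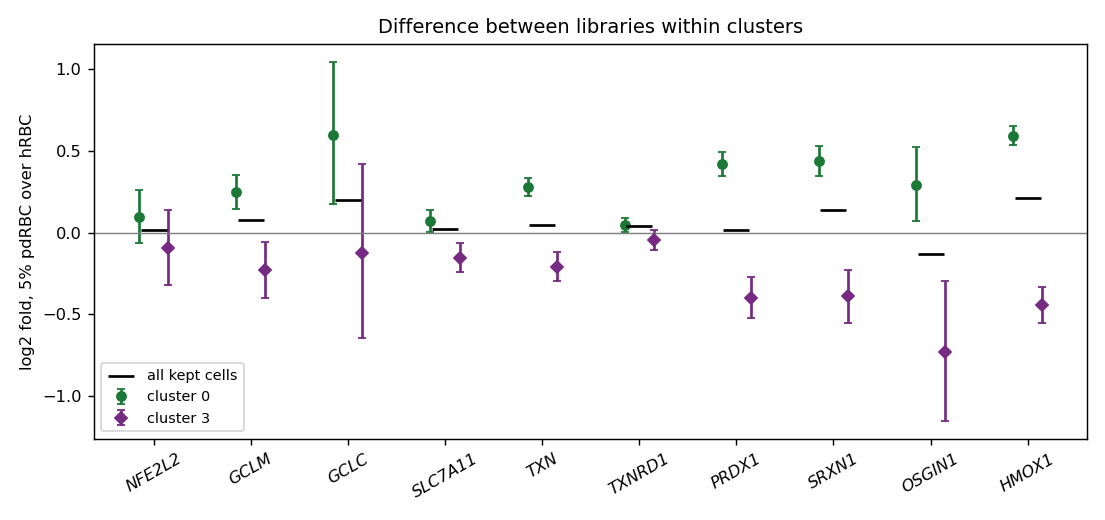
Log2 fold, 5% pdRBC over hRBC, of each gene within cluster 0 (green circles) and cluster 3 (purple diamonds), with 95% Clopper-Pearson intervals for counting error; black dashes are the folds over all kept cells. SRXN1, PRDX1 and HMOX1 lie at 0.44, 0.42 and 0.59 in cluster 0 and at -0.39, -0.40 and -0.44 in cluster 3, while TXNRD1 and NFE2L2 stay within 0.10 of 0 in both.

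The opposite folds depended on how finely cells were divided. At the finer resolution of 1.0, HMOX1 and SRXN1 had log2 folds of 0.68 and 0.61 in a cluster of 282 cells of 5% pdRBC and 223 of hRBC. They had 0.05 and 0.02 in another of 176 and 23 cells, and -0.37 and -0.32 in one of 375 and 207 cells. In the same order of clusters, PRDX1 had 0.16, 0.06 and -0.25, and TXN had 0.20, -0.10 and -0.15. In a cycling cluster of 137 and 131 cells HMOX1 had -0.20. Clusters mix cells of unequal depth. In 5% pdRBC, HMOX1 had 352, 528, 634 and 854 CPM in classes of cells that start at 1000, 2000, 5000 and 10000 UMIs. TXN had 483, 794, 864 and 1051 CPM. The lowest class held only 44 cells of 5% pdRBC, against 1180 of hRBC. Its 5% pdRBC levels rest on 24 UMIs of HMOX1 (225 to 523 CPM) and 33 of TXN (333 to 679 CPM). In hRBC, HMOX1 had 664, 696, 657 and 662 CPM in the same classes, and TXN 1002, 998, 890 and 943 CPM, so both varied less there. TXNRD1 and SLC7A11 went the other way in 5% pdRBC, with 2022, 1447, 1392 and 1357 CPM of TXNRD1 and 820, 702, 660 and 599 CPM of SLC7A11. In hRBC, PRDX1 had 701, 760, 441 and 626 CPM and SRXN1 332, 259, 281 and 258 CPM, with no single order. The barcodes that were not kept, 34 of 5% pdRBC and 1303 of hRBC, had 291 CPM (133 to 553, on 9 UMIs) of TXN in 5% pdRBC and 992 CPM in hRBC. The part of depth in the differences between the libraries was not tested. In cells with 10000 UMIs or above, a setting chosen after the data were seen, the median log2 fold of the 9 genes was 0.13.

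Every member lies on GRCh38, with GENCODE release 29 positions. NFE2L2 is at chr2:177227595-177392697, GCLM at chr1:93885205-93909456, GCLC at chr6:53497341-53616970 and SLC7A11 at chr4:138164097-138242349, all on the minus strand. TXNRD1 is at chr12:104215779-104350305 on the plus strand and OSGIN1 at chr16:83948282-83966332 on the plus strand. SRXN1 is at chr20:646615-653370, PRDX1 at chr1:45511036-45523047 and TXN at chr9:110243811-110256640, on the minus strand. Annotated genes overlap 7 of the 9, all but GCLM and TXN, and NFE2L2 overlaps AGPS. The annotation names 7 pseudogenes of TXN and 1 of PRDX1. Whether counting used strand is not given in the sources used here, so reads of overlapping genes and near-identical copies are uncertain.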

How the data were processed

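Per the labels' protocols, the HUVECs were removed from the devices, filtered, cleared of red cells by a lysis buffer and captured for 10x 5′ version 2 libraries. The authors deposited raw counts of UMIs for each gene in each barcode. Per the submitters' processing notes and the file headers, Cell Ranger 7.0.0 made them with the GRCh38 build. The annotation release is not given in the sources used here, nor is a later filter. No deposited barcode held fewer than 500 UMIs.

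Barcodes with at least 1000 UMIs, at least 500 genes and no more than 20% mitochondrial UMIs were kept, and no barcode was removed as a doublet. All kept cells entered the sums, since choosing clusters by name would have removed cells by depth unequally between the libraries. CPM is the summed UMIs over the library's kept total. A fold divides the 5% pdRBC level by the hRBC level after adding 0.5 UMIs to both sums, and no test was run. A count of 0 would allow 3 counts, which is 0.186 CPM in 5% pdRBC and 0.225 CPM in hRBC. Intervals and this floor cover counting error only.

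For correlations, cells of 5000 or more UMIs were thinned to 5000 without replacement (seed 1). Clusters came from Scanpy 1.11.5 with 2000 variable genes other than the 9 genes and HMOX1, 30 principal components, 15 neighbours and Leiden resolution 0.5 (python-igraph 0.11.9). A cluster was called cycling with at least 3 cycling markers among its 20 leading genes. The fold, its interval and the thinned correlation were tested on simulated counts. Alternatives changed the cells, depth, scaling (median of ratios, and TMM in edgeR 4.0.16), pseudocount, gene minimum, thinning and resolution.

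The 9 genes and the wider lists were chosen with earlier results of these data known. Of each wider list the text names up to 3 measured genes with the largest folds in each direction, and beside the 9 genes the 10 genes most like HMOX1 and the 10 most like their mean z-score. KEAP1, BACH1, GSTM3, NQO1 and the other list genes given for the HMOX1 tertiles were chosen after their values were seen. GPX1 was not analysed here. Some genes that this rule selects are not reported here.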

Additional observations from a re-analysis of the deposited data

Results flagged for a closer look

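The differences between the libraries had opposite signs in clusters 0 and 3 for 6 of the 9 genes, with each counting interval leaving out 0, as 1.73% of 7419 genes measured in both clusters did in the same directions. The log2 fold, 5% pdRBC over hRBC, of GCLM was 0.25 in cluster 0 and -0.23 in cluster 3. That of SRXN1 was 0.44 and -0.39, that of SLC7A11 0.068 and -0.15, and that of OSGIN1 0.29 and -0.73. PRDX1 had 0.42 and -0.40, and TXN 0.28 and -0.21. At resolution 1.0, PRDX1 and TXN had 0.16 and 0.20 in a cluster of 282 and 223 cells. They had 0.06 and -0.10 in one of 176 and 23 cells, and -0.25 and -0.15 in one of 375 and 207 cells. Each cluster is 1 group of cells per library, so the difference was not tested. The 1.73% was not matched for abundance, on which these intervals depend.

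BACH1 had a log2 ratio of 0.52 between the highest and the lowest HMOX1 tertile in 5% pdRBC and of -0.45 in hRBC, and the difference was not tested.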

How the results depend on the processing

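No paired analysis was possible because each group is 1 library; for the same reason no replicate could be left out. The median log2 fold of the 9 genes (0.04) was 0.0083 with every cell weighted equally, 0.13 in cells of 10000 or more UMIs, 0.28 in cluster 0 and -0.21 in cluster 3. Genes 1.2-fold or more higher (0) were 1 in cells of 5000 or more UMIs and 5 in cluster 0; those lower (0) were 1 with equal weights and 3 in cluster 3. Measured genes past 1.2-fold, 1144 higher and 821 lower, were 1766 and 1574 with equal weights, 2243 and 1723 under a gene minimum of 20 UMIs, 442 and 327 at 500, and 6488 and 5845 with none.

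The median rho with HMOX1 in 5% pdRBC (0.21) was 0.13 with cells thinned to 2000 UMIs, 0.27 without thinning and 0.10 without cluster 0. In hRBC (0.093) it lay between 0.016 and 0.18 over 10 settings, with 0.18 without thinning. The lowest values of single genes in hRBC ran from -0.077 (NFE2L2) to 0.077 (OSGIN1), with -0.025 for TXNRD1 and 0.0018 for GCLM. Genes of the 9 past 0.1 in both libraries (3) were 1 at 2000 UMIs, 7 at 10000, 7 without thinning, 6 with thinning seed 2 and 6 within cluster 0. All measured genes past 0.1 (71) were 13, 151 and 171 under the first 3 of these, 36 without the 5% of cells highest in HMOX1 and 28 without cluster 0. The count of 6 of 9 genes past 1.2-fold between HMOX1 tertiles was 5 to 6 over its alternatives. The median over the 9 genes of the highest over the lowest cluster in hRBC (2.20) was 5.20 at resolution 1.0. The first covers 7 clusters and the second 14. At resolution 1.0, OSGIN1 had 0 CPM in its lowest hRBC cluster, of 23 cells, so its ratio was not finite. The cluster and 10000 UMI settings were added after seeing the data, and the cause of these moves was not tested. Depth limits GCLC and OSGIN1 most.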
